A study of Mus musculus with 18 samples.

Results

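Nfe2l2, Nfe2l1, Keap1, Bach1, Maff, Mafg, Mafk and Sqstm1 encode the transcription factors Nrf2, Nrf1 and Bach1, the small Maf proteins they pair with, and a pair of proteins that govern how much Nrf2 a cell holds. The genes were chosen by symbol alone, as the entries of the deposited count table whose gene name equals 1 of these 8 names, and they are 8 of its 56748 genes, of which 27701 had a count in some library. Nrf2 and Nrf1 are activators of the CNC family that bind antioxidant response elements as dimers with a small Maf protein, Nrf2 serving the response to electrophiles and Nrf1 the renewal of proteasomes. Keap1 holds Nrf2 and hands it to a ubiquitin ligase until an electrophile, such as the quinone that forms from tert-butylhydroquinone (TBHQ), modifies its cysteines, and the autophagy adaptor encoded by Sqstm1 can bind Keap1 and carry it to degradation. Bach1 is a heme-sensing repressor that takes the same small Maf partners and the same elements, and in macrophages this set of proteins governs genes of glutathione, heme and iron metabolism.

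The study asked how TBHQ given before an inflammatory stimulus alters the RNA of RAW 264.7 cells, an established mouse macrophage line, and poly(A) RNA of 18 libraries was sequenced, 3 for each of 6 groups. Control cells were untreated, TBHQ cells were harvested after 4 h with 5 µM TBHQ, LPS cells received 0.1 µg/mL lipopolysaccharide for 12 h, and PIC cells received 20 µg/mL of the double-stranded RNA mimic polyinosinic:polycytidylic acid for 12 h. LPS+TBHQ and PIC+TBHQ cells received the same stimulus after the same TBHQ pre-treatment. All groups share 1 cell line, and the labels do not say how replicate numbers relate across groups, so p-values measure spread among these samples. The study's timeline places the control, in medium only, at the 12 h time, so TBHQ against control may also hold a difference in time in culture. TBHQ was dissolved in DMSO and no vehicle is named for the groups without it, so comparisons of cells with and without TBHQ may hold a vehicle difference. The libraries give RNA and not protein, and cells given TBHQ without a stimulus to the later time were not among them.

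Library totals ran from 14423390 to 18851626 counts, with a median of 15742337. All 8 macrophage markers examined (Adgre1, Cd68, Csf1r, Itgam, Fcgr1, Lyz2, Spi1 and Cd14) passed the filter on low counts, their summed level was 5713 to 6705 FPKM (fragments per kilobase of gene scaled for library depth, deposited by the authors) in each library, and Lyz2 was the most abundant at a mean of 4531 FPKM in control. That sum is mostly Lyz2 and the markers did not move together. By the test described below, 4 were called higher and 3 lower with each stimulus against control (3 and 3 with LPS and 3 and 4 with PIC when libraries were scaled by their total counts), with Adgre1 highest at a log2 fold change of 1.45 with LPS and 1.86 with PIC and Csf1r lowest at -0.75 and -0.85. With TBHQ against control 1 was called higher and 4 lower, Fcgr1 being lowest at -1.28. Beside these counts, 24.0% of all genes tested were called higher and 24.1% lower with LPS. The shares were 28.6% and 30.1% with PIC, and 14.2% and 14.8% with TBHQ. None of 8 markers of other cells passed that filter, their summed level was 0.00942 to 0.0598 FPKM per library, and Cd3e, Ncr1 and Ly6g had no count, while Flt3, Col1a1, Epcam, Pecam1 and Mpo had at most 5 in a library. All 6 stimulus genes (Nos2, Il6, Tnf, Ptgs2, Ifit1 and Cxcl10) were called higher after LPS and after PIC. All 6 were called lower with TBHQ than without it under each stimulus, beside 12.2% of all genes within LPS and 15.5% within PIC. With TBHQ against control 3 were called higher (Ptgs2 at 1.35, Tnf at 0.68 and Cxcl10 at 0.65) and 3 lower. LPS+TBHQ against control had 4 higher and 2 lower (21.2% and 22.5% of all genes), with Cxcl10 at -0.72 and Ifit1 at -0.55. In bulk RNA, fewer cells with a transcript and less transcript in each cell cannot be told apart.

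Every member passed the filter, the lowest count being 64 for Maff in control replicate 2 and TBHQ replicate 2, and the highest 96682 for Sqstm1 in PIC replicate 3. In control cells the order by mean FPKM was Sqstm1 at 591, Nfe2l1 at 60.4, Nfe2l2 at 38.7, Mafg at 28.0, Mafk at 16.4, Keap1 at 16.2, Bach1 at 7.25 and Maff at 1.77. The Mafk and Keap1 libraries overlapped there, and every other neighbour in that order was separated. Nfe2l1 thus had more transcript per length than Nfe2l2 in untreated cells, and Mafg was the leading small Maf transcript.

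**Figure D1:**
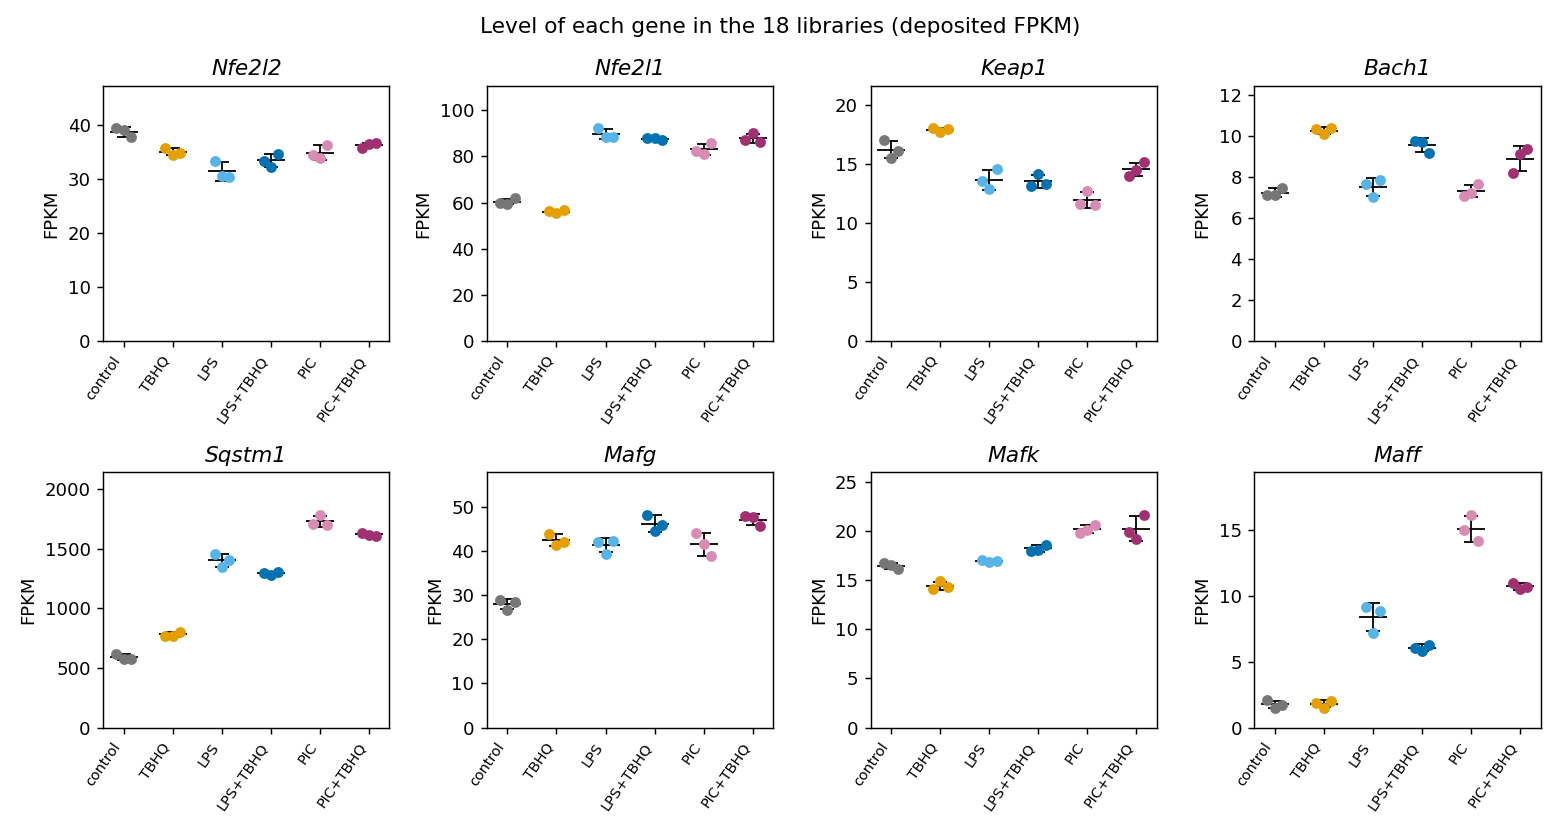
Deposited FPKM of each of the 8 genes in the 18 libraries, 1 point per library, with the mean and SD of each group of 3 as bars and every vertical axis starting at 0. Maff and Sqstm1 were highest in the PIC libraries, Mafg was lowest in the control libraries, and Bach1 was higher in the 3 groups that received TBHQ than in the 3 that did not.

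Differences were tested by an edgeR quasi-likelihood fit over all 18 libraries, with Benjamini-Hochberg adjustment over the 13691 genes that passed the filter, and a gene is said to be called where its adjusted p was below 0.05. Comparisons that share a group share its libraries, so their values are given side by side and not as repeats of each other. With TBHQ against control, 4 of 8 members were called higher and 3 lower, where 14.2% of all genes tested were called higher and 14.8% lower. With LPS against control, 4 members were called higher and 2 lower, beside 24.0% and 24.1% of genes. For PIC against control the members split 5 higher and 2 lower (4 and 3 by total library size), beside 28.6% and 30.1%. Both pre-treated and stimulated groups differed from control in all 8 members, 6 higher and 2 lower in each, although by total library size LPS+TBHQ had 5 higher, and without control replicate 1 or PIC+TBHQ replicate 1 PIC+TBHQ had 0 lower. The background of those counts was 21.2% higher and 22.5% lower for LPS+TBHQ, and 26.4% higher and 26.0% lower for PIC+TBHQ. A larger share of members than of genes at large was thus called against control, a difference that was not tested, in a set chosen with results of these data known. With TBHQ against control the median size of the log2 fold change was 0.17 for members and 0.16 for all genes.

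Within a stimulus, LPS+TBHQ against LPS had 2 members called higher and 2 lower, beside 11.7% and 12.2% of genes. By total library size that became 4 higher and 2 lower, and the number higher was 3 without LPS replicate 1 and 1 without LPS+TBHQ replicate 1. PIC+TBHQ against PIC had 4 called higher and 2 lower, beside 15.8% and 15.5%, and 5 and 1 by total library size, with 1 lower also without PIC replicate 2 or PIC+TBHQ replicate 3. Between the stimuli, PIC against LPS had 4 members higher and 2 lower, beside 14.9% and 12.8%, a split that turned to 2 higher and 4 lower by total library size and was 3 and 1 without LPS replicate 3. After TBHQ, PIC+TBHQ against LPS+TBHQ had 4 higher and 0 lower, beside 11.9% and 8.39%, and this became 2 higher and 1 lower by total library size, and 2 and 0 with no filter on low counts and without LPS+TBHQ replicate 1, LPS+TBHQ replicate 2 or PIC+TBHQ replicate 3. The change with TBHQ in PIC minus that in LPS was called for 1 member, upward, beside 0.825% of genes upward and 1.01% downward. No member was called for that difference without LPS replicate 3, LPS+TBHQ replicate 1 or 3, PIC replicate 1 or 3, or PIC+TBHQ replicate 3, nor by limma on FPKM, and 2 were called by total library size. Under the stricter threshold the study used, an adjusted p below 0.01 and a log2 fold change beyond 2 in size, Maff alone among the members passed, in LPS, PIC and PIC+TBHQ against control. Against control, that threshold took 0.190% of genes for TBHQ, 1.64% for LPS, 3.57% for PIC, 0.964% for LPS+TBHQ and 2.15% for PIC+TBHQ.

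The scaling of libraries moves small changes. Scaling by total library size in place of TMM moved the median log2 fold change of all genes by -0.22 in PIC against control, -0.15 in PIC+TBHQ against control and -0.13 in PIC against LPS, and by less than 0.1 in the other comparisons. The share of called genes that were higher went from 49.8% to 35.0% for LPS, from 48.7% to 26.4% for PIC, from 48.4% to 36.1% for LPS+TBHQ and from 50.4% to 30% for PIC+TBHQ, each against control. It went from 48.9% to 59.5% for LPS+TBHQ against LPS and from 50.6% to 70.3% for PIC+TBHQ against PIC. Between the stimuli it went from 53.7% to 18.4% without TBHQ and from 58.5% to 25.6% with it, and for the difference between the changes with TBHQ from 45.0% to 76.1%. Small changes in a member can therefore depend on the scaling, and each call that ended under it, or called value that it moved by more than 1.5 times, is named.

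Nfe2l2 (ENSMUSG00000015839) encodes Nrf2 and lies in the authors' table on chromosome 2 from 75505857 to 75534985, minus strand. Control libraries held 39.4, 39.0 and 37.7 FPKM and TBHQ libraries 35.8, 34.5 and 34.8 FPKM. LPS libraries held 33.4, 30.5 and 30.3 FPKM and LPS+TBHQ libraries 33.3, 32.2 and 34.7 FPKM. PIC libraries held 34.5, 33.8 and 36.4 FPKM and PIC+TBHQ libraries 35.8, 36.5 and 36.6 FPKM. Control was the highest group and overlapped no other, LPS was the lowest, and the groups from TBHQ down through PIC and LPS+TBHQ to LPS each overlapped the next. The group means with their SD over 3 libraries ran from 38.7 ± 0.877 in control through 36.3 ± 0.431 in PIC+TBHQ, 35.0 ± 0.651 in TBHQ, 34.9 ± 1.31 in PIC and 33.4 ± 1.22 in LPS+TBHQ to 31.4 ± 1.73 in LPS.

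The transcript of Nrf2 was called lower than control in all 5 treated groups. With TBHQ its log2 fold change was -0.14 (95% interval -0.23 to -0.06, edgeR adjusted p 0.0077). With LPS it was -0.31 (-0.39 to -0.22, adjusted p 1.5e-07), the lowest of the 5, a level 0.808 times that of control. With PIC it was -0.16 (-0.25 to -0.08, adjusted p 0.00099), or -0.38 by total library size, and with LPS+TBHQ -0.22 (-0.30 to -0.13, adjusted p 4.4e-05). The PIC+TBHQ value of -0.10 (-0.18 to -0.01, adjusted p 0.048) lay at the edge of the threshold, and was -0.25 by total library size. That call ended without control replicate 1 (adjusted p 0.14), control replicate 2 (0.11), PIC+TBHQ replicate 1 (0.13), replicate 2 (0.079) or replicate 3 (0.072), and under DESeq2 (0.08), RLE scaling (0.056), no filter on low counts (0.11), a minimum mean of 50 counts (0.053) and limma on FPKM (0.062 and 0.063), within a range of 4.1e-06 to 0.14 over all alternatives.

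TBHQ pre-treatment gave no call for Nfe2l2 within a stimulus. Its log2 difference was 0.09 (95% interval 0.00 to 0.18, edgeR adjusted p 0.14) within LPS and 0.07 (-0.02 to 0.15, adjusted p 0.25) within PIC, intervals that leave a small rise or none. Scaled by total library size both were called higher, at 0.11 within LPS and 0.14 within PIC, and leaving out LPS replicate 1 gave a called 0.13 within LPS. The changes differed by -0.02 (-0.14 to 0.10, adjusted p 0.92), with a sign that turned at 0.02 by total library size and at 0.007 without LPS+TBHQ replicate 3. PIC exceeded LPS by 0.14 (0.06 to 0.23, adjusted p 0.011). This call ended at 0.01 by total library size, at 0.12 without LPS replicate 3 and at 0.12 without PIC replicate 3. PIC+TBHQ exceeded LPS+TBHQ by 0.12 (0.04 to 0.21, adjusted p 0.036), and that call ended at 0.04 by total library size and at 0.11 with no filter on low counts. It also ended at 0.12 without LPS+TBHQ replicate 1, 0.10 without LPS+TBHQ replicate 2, 0.13 without PIC+TBHQ replicate 1, 0.11 without PIC+TBHQ replicate 2 and 0.11 without PIC+TBHQ replicate 3.

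Nfe2l1 (ENSMUSG00000038615), the gene of Nrf1, lies on chromosome 11 from 96708240 to 96720794, minus strand, in the authors' table. It stood at 59.9, 59.6 and 61.8 FPKM in control and at 56.2, 55.3 and 56.7 FPKM with TBHQ. After LPS it stood at 92.2, 88.5 and 88.3 FPKM, and at 87.9, 87.8 and 87.0 FPKM in LPS+TBHQ. After PIC it stood at 82.4, 81.2 and 85.6 FPKM, and at 87.1, 90.2 and 86.3 FPKM in PIC+TBHQ. All 12 stimulated libraries lay above all 6 unstimulated ones. The means ran from 89.6 ± 2.19 FPKM in LPS through 87.8 ± 2.08 in PIC+TBHQ, 87.5 ± 0.526 in LPS+TBHQ, 83.0 ± 2.32 in PIC and 60.4 ± 1.22 in control to 56.1 ± 0.707 in TBHQ, and neighbours among the highest 3 groups overlapped.

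Against control, edgeR gave Nfe2l1 a log2 fold change of 0.56 with LPS (95% interval 0.50 to 0.63, adjusted p 4.7e-17) and 0.44 with PIC (0.38 to 0.51, adjusted p 2e-14), the last falling to 0.22 by total library size. It was 0.53 in both LPS+TBHQ (0.46 to 0.59, adjusted p 4.2e-16) and PIC+TBHQ (0.47 to 0.60, adjusted p 1.4e-16). TBHQ alone went the other way, at -0.11 (-0.17 to -0.04, adjusted p 0.0091), and this call ended without control replicate 3 at -0.09 (adjusted p 0.062, in a range of 0.0031 to 0.062 over the alternatives). The Nrf1 and Nrf2 transcripts thus moved in opposite directions in the stimulated groups, and the FPKM ratio of Nfe2l1 to Nfe2l2 was 1.56 ± 0.0669 in control, 1.60 ± 0.0283 in TBHQ, 2.86 ± 0.0852 in LPS, 2.62 ± 0.109 in LPS+TBHQ, 2.38 ± 0.0225 in PIC and 2.42 ± 0.0581 in PIC+TBHQ. Within LPS the difference with TBHQ was -0.04 (-0.10 to 0.03, adjusted p 0.47). Within PIC it was 0.09 (0.03 to 0.16, adjusted p 0.026), a call that ended under RLE scaling (0.08), no filter (0.09), a minimum mean of 50 counts (0.07) and a fit of the compared groups alone (0.09). It ended as well without PIC replicate 1 (0.07), PIC replicate 2 (0.06), PIC+TBHQ replicate 1 (0.09) or PIC+TBHQ replicate 2 (0.07). The change within PIC minus that within LPS was 0.13 (0.04 to 0.22, adjusted p 0.15), so the changes were not shown to differ, although total library size made it a called 0.17 and the change within PIC 0.16. PIC was lower than LPS by a log2 value of -0.12 (-0.18 to -0.05, adjusted p 0.0041), or -0.25 by total library size, and after TBHQ the stimuli differed by 0.01 (-0.06 to 0.07, adjusted p 0.9), a difference whose sign turned at -0.08 by total library size, -0.007 with no filter, -0.003 with a minimum mean of 50 counts, -0.003 in a fit of the compared groups alone and -0.01 without PIC+TBHQ replicate 2.

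Keap1 (ENSMUSG00000003308), the gene of the Nrf2 inhibitor, lies on chromosome 9 from 21141026 to 21150657, minus strand. Control libraries held 17.02, 15.5 and 16.1 FPKM and TBHQ libraries 18.01, 17.7 and 17.9 FPKM. In LPS its level was 13.5, 12.9 and 14.6 FPKM, and in LPS+TBHQ 13.1, 14.2 and 13.3 FPKM. In PIC its level was 11.6, 12.7 and 11.5 FPKM, and in PIC+TBHQ 14.0, 14.5 and 15.1 FPKM. The TBHQ libraries were the highest and the PIC libraries the lowest, both apart from every other group, and the PIC+TBHQ, LPS and LPS+TBHQ libraries overlapped in the middle. Means fell in the order TBHQ at 17.9 ± 0.163 FPKM, control at 16.2 ± 0.748, PIC+TBHQ at 14.5 ± 0.580, LPS at 13.7 ± 0.848, LPS+TBHQ at 13.5 ± 0.553 and PIC at 11.9 ± 0.661.

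Keap1 was called lower than control in each stimulated group. The log2 fold change was -0.25 with LPS (95% interval -0.36 to -0.15, edgeR adjusted p 0.00011), -0.46 with PIC (-0.57 to -0.35, adjusted p 2.6e-09) and -0.27 with LPS+TBHQ (-0.38 to -0.17, adjusted p 4.6e-05). It was -0.16 with PIC+TBHQ (-0.27 to -0.06, adjusted p 0.0081), or -0.31 by total library size, where the call ended at -0.13 without control replicate 1 and at -0.14 without PIC+TBHQ replicate 1. TBHQ alone gave 0.14 (0.04 to 0.24, adjusted p 0.036). The call held without control replicate 1 (0.17, adjusted p 0.018) and ended, at values of 0.11 to 0.14, without any other library of the comparison, with an adjusted p of 0.17 without control replicate 2, 0.09 without control replicate 3, and 0.088, 0.063 and 0.078 without TBHQ replicate 1, 2 and 3. It was 0.077 with no filter and 0.057 and 0.059 by limma on FPKM, and ran from 0.018 to 0.17 over all alternatives.

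The change in Keap1 with TBHQ differed between the stimuli by edgeR's test of the difference. Within PIC, TBHQ gave a log2 difference of 0.29 (95% interval 0.19 to 0.40, adjusted p 4.7e-05), and all 3 PIC+TBHQ libraries lay above all 3 PIC libraries. Within LPS it gave -0.02 (-0.12 to 0.09, adjusted p 0.87), with overlapping libraries and a sign that turned under total library size, at 0.009, and at 0.03 without LPS replicate 3 and 0.005 without LPS+TBHQ replicate 1. The change in PIC minus that in LPS was 0.31 (0.16 to 0.47, adjusted p 0.021). The adjusted p of that difference was above the threshold in 6 of 12 fits that left out a library, at 0.11 without LPS replicate 3, 0.064 without LPS+TBHQ replicate 1, 0.052 without LPS+TBHQ replicate 3, 0.075 without PIC replicate 1, 0.079 without PIC replicate 3 and 0.083 without PIC+TBHQ replicate 3. By limma on FPKM it was 0.069 and 0.072, and over all alternatives it ran from 0.0056 to 0.11. Without TBHQ, PIC was lower than LPS by a log2 value of -0.20 (-0.31 to -0.09, adjusted p 0.0043), or -0.33 by total library size, a call that ended at -0.15 without LPS replicate 3, and with TBHQ the stimuli differed by 0.11 (0.00 to 0.21, adjusted p 0.16).

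The ratio of Nfe2l2 to Keap1 FPKM, factor over inhibitor, is described without a test. It was 2.39 ± 0.106 in control, 1.96 ± 0.0229 in TBHQ, 2.30 ± 0.201 in LPS, 2.48 ± 0.175 in LPS+TBHQ, 2.93 ± 0.250 in PIC and 2.50 ± 0.0735 in PIC+TBHQ. The TBHQ libraries had the lowest ratios, 1.94 to 1.99, and the PIC libraries the highest, 2.66 to 3.16, while the other groups overlapped each other.

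Sqstm1 (ENSMUSG00000015837), on chromosome 11 from 50090193 to 50101654, minus strand, encodes the adaptor that binds ubiquitin, autophagosomes and Keap1. Its control libraries stood at 617, 579 and 577 FPKM (591 ± 22.4) and its TBHQ libraries at 770, 772 and 804 FPKM (782 ± 18.9). Its LPS libraries stood at 1460, 1349 and 1406 FPKM (1405 ± 55.6) and its LPS+TBHQ libraries at 1300, 1281 and 1305 FPKM (1295 ± 12.5). Its PIC libraries stood at 1711, 1785 and 1701 FPKM (1732 ± 45.8) and its PIC+TBHQ libraries at 1636, 1617 and 1609 FPKM (1621 ± 13.9). No pair of groups overlapped, so the order was PIC, PIC+TBHQ, LPS, LPS+TBHQ, TBHQ and control.

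Each treated group was called higher than control for Sqstm1. By edgeR the log2 fold change was 0.40 with TBHQ (95% interval 0.34 to 0.46, adjusted p 4e-13), 1.24 with LPS (SE 0.0444, adjusted p 5.4e-28) and 1.53 with PIC (1.47 to 1.60, adjusted p 3.4e-31), the last a 2.90-fold difference. It was 1.12 with LPS+TBHQ (1.06 to 1.18, adjusted p 1.1e-26) and 1.45 with PIC+TBHQ (1.39 to 1.51, adjusted p 3e-30). TBHQ before a stimulus went with slightly lower Sqstm1, unlike TBHQ alone. The log2 difference was -0.12 within LPS (-0.18 to -0.06, adjusted p 0.0024) and -0.09 within PIC (-0.15 to -0.03, adjusted p 0.025). The call within PIC ended at -0.02 by total library size, at -0.10 and -0.10 by limma on FPKM, at -0.08 without PIC replicate 2 and at -0.09 without PIC+TBHQ replicate 3. The changes within the stimuli differed by 0.03 (-0.05 to 0.12, adjusted p 0.79). PIC exceeded LPS by 0.29 (0.23 to 0.35, adjusted p 7.5e-10), or 0.16 by total library size, and with TBHQ by 0.33 (0.27 to 0.39, adjusted p 6e-11). As Keap1 was lower and Sqstm1 higher after each stimulus, the FPKM ratio of Sqstm1 to Keap1 was 36.4 ± 0.706 in control, 43.7 ± 1.05 in TBHQ, 103.0 ± 5.87 in LPS, 95.9 ± 4.70 in LPS+TBHQ, 145 ± 4.07 in PIC and 112 ± 5.38 in PIC+TBHQ.

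Bach1 (ENSMUSG00000025612), the repressor, lies on chromosome 16 from 87495833 to 87530234, plus strand. Its level was 7.12, 7.13 and 7.49 FPKM in control (7.25 ± 0.211) and 10.3, 10.1 and 10.4 FPKM with TBHQ (10.3 ± 0.155). It was 7.64, 7.03 and 7.87 FPKM with LPS (7.51 ± 0.431) and 9.77, 9.72 and 9.18 FPKM with LPS+TBHQ (9.56 ± 0.331). It was 7.08, 7.22 and 7.67 FPKM with PIC (7.32 ± 0.312) and 8.22, 9.12 and 9.37 FPKM with PIC+TBHQ (8.90 ± 0.607). All 9 libraries that received TBHQ lay above all 9 that did not, and the control, LPS and PIC libraries overlapped. Among the TBHQ groups, the cells taken at 4 h were the highest and LPS+TBHQ and PIC+TBHQ overlapped.

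Bach1 was called higher wherever TBHQ was the difference between groups. The log2 fold change by edgeR was 0.50 for TBHQ against control (95% interval 0.39 to 0.61, adjusted p 5.8e-09), 0.35 within LPS (0.23 to 0.46, adjusted p 9.8e-06) and 0.29 within PIC (0.18 to 0.41, adjusted p 0.00012). The changes within the stimuli differed by -0.05 (-0.22 to 0.11, adjusted p 0.83). LPS+TBHQ exceeded control by 0.39 (0.28 to 0.50, adjusted p 3.5e-07) and PIC+TBHQ by 0.29 (0.18 to 0.41, adjusted p 4e-05), the last falling to 0.14 by total library size. The stimuli alone gave no call, at 0.04 for LPS (-0.07 to 0.16, adjusted p 0.56) and 0.00 for PIC (-0.12 to 0.12, adjusted p 1). Total library size turned both signs, to -0.04 for LPS and to a called -0.22 for PIC, the same size as the shift of the median gene there. The PIC value turned as well at -0.0006 with a replicate block, at -0.01 without control replicate 1, at -0.01 without control replicate 2 and at -0.02 without PIC replicate 3. PIC and LPS differed by -0.04 without TBHQ (-0.16 to 0.07, adjusted p 0.63) and by -0.10 with it (-0.21 to 0.01, adjusted p 0.23), and total library size made both a call, at -0.17 and -0.18. The FPKM ratio of Nfe2l2 to Bach1, activator over repressor, was 5.34 ± 0.271 in control, 3.41 ± 0.0507 in TBHQ, 4.19 ± 0.288 in LPS, 3.50 ± 0.245 in LPS+TBHQ, 4.76 ± 0.0946 in PIC and 4.09 ± 0.238 in PIC+TBHQ.

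**Figure D2:**
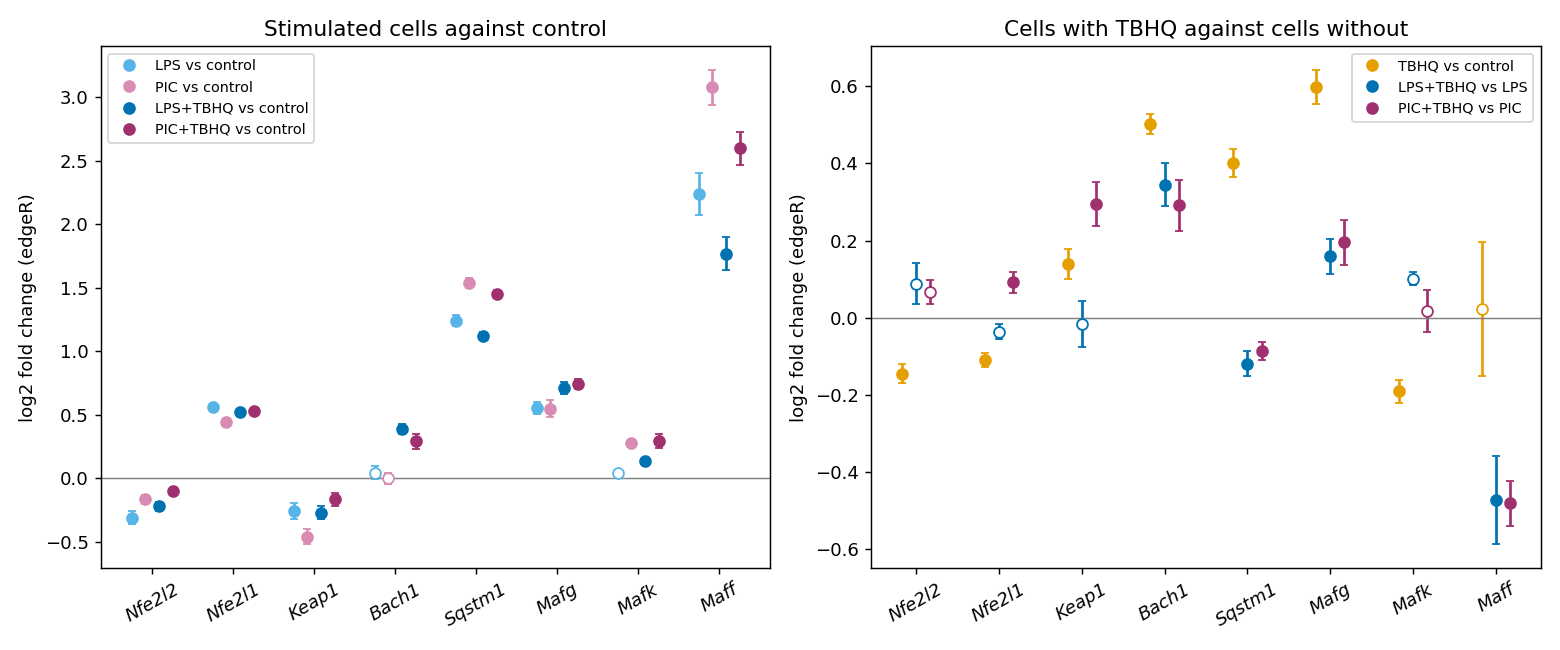
Log2 fold change of each gene by edgeR, stimulated groups against control on the left and groups with TBHQ against those without it on the right, with the standard error from the spread of 3 libraries a group as bars, filled points called and open points not called. Maff reached 3.08 with PIC, Bach1 and Mafg were called higher with TBHQ in all 3 settings on the right, and Keap1 was called higher with TBHQ within PIC but not within LPS.

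Mafg (ENSMUSG00000051510), on chromosome 11 from 120515943 to 120524426, minus strand, encodes a small Maf, a partner with no activation domain of its own. Control libraries held 28.8, 26.7 and 28.4 FPKM (28.0 ± 1.16) and TBHQ libraries 43.9, 41.4 and 42.0 FPKM (42.4 ± 1.303). LPS libraries held 42.1, 39.4 and 42.3 FPKM (41.3 ± 1.62) and LPS+TBHQ libraries 48.1, 44.5 and 45.8 FPKM (46.2 ± 1.86). PIC libraries held 44.1, 41.5 and 38.8 FPKM (41.5 ± 2.64) and PIC+TBHQ libraries 47.9, 47.8 and 45.6 FPKM (47.1 ± 1.28). Control lay below all 15 other libraries, the TBHQ, PIC and LPS groups overlapped, and LPS+TBHQ and PIC+TBHQ overlapped above them.

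Against control, Mafg was called higher in all 5 groups. Its log2 fold change was 0.60 with TBHQ (95% interval 0.51 to 0.69, edgeR adjusted p 3.6e-13), 0.55 with LPS (0.46 to 0.64, adjusted p 5.2e-13) and 0.55 with PIC (0.46 to 0.64, adjusted p 3.4e-13), the last falling to 0.33 by total library size. It was 0.71 with LPS+TBHQ (0.62 to 0.80, adjusted p 6e-16) and 0.75 with PIC+TBHQ (0.66 to 0.83, adjusted p 9.6e-17). All 6 libraries that received both TBHQ and a stimulus lay above all 9 that received 1 of them. TBHQ added 0.16 within LPS (0.07 to 0.25, adjusted p 0.0055), a call that ended at 0.13 without LPS+TBHQ replicate 1, and 0.20 within PIC (0.11 to 0.28, adjusted p 0.00054, and 0.13 without PIC replicate 3), changes that differed by 0.04 (-0.09 to 0.16, adjusted p 0.86). The stimuli differed by less than 0.01 without TBHQ (-0.09 to 0.08, adjusted p 0.96) and by 0.03 with it (-0.05 to 0.12, adjusted p 0.67). The sign without TBHQ turned at 0.006 by DESeq2, 0.007 by RLE scaling, 0.005 by limma on FPKM, 0.01 without LPS replicate 1, 0.02 without LPS replicate 3 and 0.05 without PIC replicate 3, total library size made it a called -0.13, and that scaling turned the value with TBHQ to -0.05.

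Mafk (ENSMUSG00000018143), on chromosome 5 from 139777268 to 139788408, plus strand, encodes another small Maf. It stood at 16.7, 16.5 and 16.1 FPKM in control (16.4 ± 0.292) and at 14.1, 14.9 and 14.3 FPKM with TBHQ (14.4 ± 0.430). LPS libraries held 17.1, 16.9 and 16.96 FPKM (16.98 ± 0.0910) and LPS+TBHQ libraries 17.99, 18.1 and 18.6 FPKM (18.2 ± 0.342). PIC libraries held 19.8, 20.1 and 20.6 FPKM (20.2 ± 0.414) and PIC+TBHQ libraries 19.9, 19.2 and 21.6 FPKM (20.2 ± 1.25). The PIC and PIC+TBHQ libraries overlapped at the top and the other groups were separated, in the order LPS+TBHQ, LPS, control and TBHQ.

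The edgeR log2 fold change of Mafk was -0.19 with TBHQ against control (95% interval -0.29 to -0.09, adjusted p 0.0027), opposite in sign to that of Mafg. With LPS it was 0.04 (-0.06 to 0.14, adjusted p 0.54), no call, with a sign that total library size turned to -0.05. It was 0.28 with PIC (0.18 to 0.38, adjusted p 4.3e-06), 0.14 with LPS+TBHQ (0.04 to 0.24, adjusted p 0.015) and 0.30 with PIC+TBHQ (0.20 to 0.39, adjusted p 2e-06), the last falling to 0.15 by total library size. By that scaling the PIC call ended at 0.06 and the LPS+TBHQ call at 0.08, and the LPS+TBHQ call also ended at 0.13 without control replicate 3 and at 0.12 without LPS+TBHQ replicate 3. Within LPS, TBHQ gave 0.10 (0.00 to 0.20, adjusted p 0.13), called at 0.13 by total library size. Within PIC it gave 0.02 (-0.08 to 0.11, adjusted p 0.83), a sign that turned at -0.003 with a minimum mean of 50 counts, -0.01 without PIC replicate 1 and -0.04 without PIC+TBHQ replicate 3. The difference between those changes was -0.08 (-0.22 to 0.05, adjusted p 0.63). PIC exceeded LPS by 0.24 (0.14 to 0.34, adjusted p 0.00018), a call that ended at 0.11 by total library size. With TBHQ, PIC exceeded LPS by 0.16 (0.06 to 0.25, adjusted p 0.014), which ended at 0.07 by total library size, 0.14 with no filter, 0.14 without LPS+TBHQ replicate 1, 0.15 without LPS+TBHQ replicate 2 and 0.10 without PIC+TBHQ replicate 3.

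Maff (ENSMUSG00000042622), on chromosome 15 from 79230821 to 79243276, plus strand, encodes the small Maf known as the inducible member of its family. Its level was 2.06, 1.51 and 1.73 FPKM in control (1.77 ± 0.274) and 1.83, 1.51 and 2.04 FPKM with TBHQ (1.79 ± 0.266). After LPS it was 9.14, 7.17 and 8.87 FPKM (8.39 ± 1.07), and in LPS+TBHQ 6.06, 5.78 and 6.30 FPKM (6.05 ± 0.264). After PIC it was 15, 16.1 and 14.2 FPKM (15.1 ± 0.986), and in PIC+TBHQ 11.0, 10.5 and 10.7 FPKM (10.7 ± 0.249). Control and TBHQ overlapped at the bottom, and the stimulated groups were separated in the order PIC, PIC+TBHQ, LPS and LPS+TBHQ. The counts behind these levels ran from 64 to 90 in unstimulated libraries and from 249 to 623 in stimulated ones, the fewest of any member.

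Maff had the largest changes of the 8 genes against control in every stimulated group. By edgeR the log2 fold change was 2.24 with LPS (95% interval 2.00 to 2.48, adjusted p 4.7e-18), a 4.72-fold difference that ranked 166 from the highest among the 13691 genes tested. With PIC it was 3.08 (2.85 to 3.30, adjusted p 2.8e-23), 8.44-fold, rank 159. It was 1.77 with LPS+TBHQ (1.52 to 2.01, adjusted p 1.1e-14) and 2.60 with PIC+TBHQ (2.37 to 2.83, adjusted p 1.8e-20). TBHQ alone gave 0.02 (-0.28 to 0.32, adjusted p 0.93), with a sign that turned at -0.08 without control replicate 2 and at -0.08 without TBHQ replicate 3. With TBHQ before the stimulus Maff was lower by like amounts, -0.47 within LPS (-0.67 to -0.28, adjusted p 0.00027) and -0.48 within PIC (-0.66 to -0.31, adjusted p 3.3e-05). The difference between those changes was -0.01 (-0.27 to 0.26, adjusted p 0.99), and its sign turned at 0.04 by total library size, 0.08 without LPS replicate 2, 0.02 without LPS+TBHQ replicate 3, 0.03 without PIC replicate 2 and 0.005 without PIC+TBHQ replicate 2. PIC exceeded LPS by 0.84 (0.66 to 1.02, adjusted p 2.5e-09) without TBHQ and by 0.83 (0.64 to 1.02, adjusted p 8.9e-09) with it, and these calls held under every alternative tried.

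Summed over the 3 genes, the small Maf transcripts stood at 46.2 ± 1.46 FPKM in control, 58.6 ± 1.06 in TBHQ, 66.6 ± 2.75 in LPS, 70.4 ± 1.95 in LPS+TBHQ, 76.8 ± 2.78 in PIC and 78.1 ± 0.632 in PIC+TBHQ. In that order each group lay above the one before it, except that PIC and PIC+TBHQ overlapped, and the highest LPS library at 68.31 FPKM came close to the lowest LPS+TBHQ library at 68.34 FPKM. Composition changed with the sum. Mafg made up 60.6 ± 0.876% of it in control, 72.3 ± 0.912% in TBHQ, 61.9 ± 0.277% in LPS, 65.5 ± 1.03% in LPS+TBHQ, 54.0 ± 1.68% in PIC and 60.3 ± 1.62% in PIC+TBHQ. Mafk made up 35.6% on average in control and 24.6% to 26.3% on average in the other 5 groups. Maff made up 3.82 ± 0.474% in control, 3.06 ± 0.443% in TBHQ, 12.6 ± 1.12% in LPS, 8.59 ± 0.283% in LPS+TBHQ, 19.7 ± 0.943% in PIC and 13.7 ± 0.207% in PIC+TBHQ. The rise with TBHQ alone was thus a rise in Mafg, while both stimuli also added Maff.

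**Figure D3:**
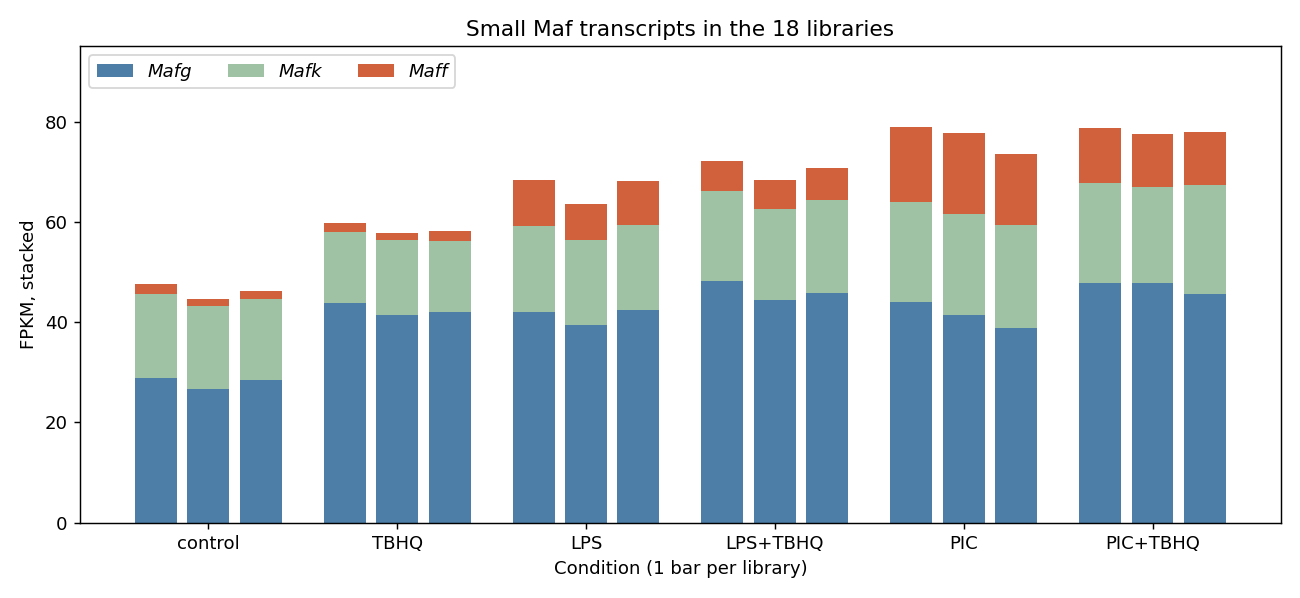
Deposited FPKM of Mafg, Mafk and Maff stacked in each of the 18 libraries, 1 bar per library, on an axis that starts at 0. The control bars total 44.7 to 47.6 FPKM and the PIC and PIC+TBHQ bars 73.6 to 78.9 FPKM, and the Maff segment is widest in PIC.

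Set against the factors that use them, the summed small Maf FPKM was 1.19 ± 0.0429 times that of Nfe2l2 in control, 1.67 ± 0.00168 times in TBHQ and 2.11 to 2.20 times on average in the 4 stimulated groups. Against Bach1 it was 6.38 ± 0.271 times in control, 5.71 ± 0.0867 in TBHQ, 8.88 ± 0.189 in LPS, 7.38 ± 0.340 in LPS+TBHQ, 10.5 ± 0.811 in PIC and 8.80 ± 0.684 in PIC+TBHQ. Small Maf transcripts were thus more plentiful relative to Nfe2l2 in all treated groups, and relative to Bach1 they were least plentiful with TBHQ alone.

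Over the 18 libraries, the Pearson correlation of log2 counts scaled for depth describes which members varied together, in libraries that share their 6 groups. Maff and Sqstm1 had an r of 0.97, and Nfe2l1 had 0.89 with each of them. Keap1 ran opposite to those 3, at -0.85 with Maff, -0.80 with Nfe2l1 and -0.79 with Sqstm1. Nfe2l2 had an r of 0.40 with Keap1, -0.54 with Nfe2l1, -0.54 with Mafg and -0.53 with Sqstm1, and Bach1 had 0.55 with Mafg and 0.48 with Keap1. Mafg had its highest r with Sqstm1, at 0.73, and 0.57 with Maff and 0.56 with Nfe2l1. Maff, Sqstm1 and Nfe2l1 thus had a high r with each other, and Mafk had 0.75 to 0.84 with them. All 3 were called higher than control in every stimulated group, but they parted elsewhere. In PIC against LPS the log2 fold change was -0.12 for Nfe2l1, 0.84 for Maff and 0.29 for Sqstm1. With TBHQ against control it was -0.11 for Nfe2l1, 0.02 for Maff, not called, and 0.40 for Sqstm1. Mafg had an r of 0.30 with Mafk, and Bach1 had -0.06 with Nfe2l2.

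Among 10451 genes with a mean of at least 50 counts, the genes most like Nfe2l2 by Pearson r were Dnmt3a (0.839), Mfsd1 (0.835) and Rassf3 (0.817), the lowest values for any member. For Nfe2l1 they were Mib2 (0.983), Speg (0.983) and Cth (0.982), and for Keap1 they were Ap1ar (0.947), Prag1 (0.942) and Fes (0.941). Bach1 was most like Osgin1 (0.955), Akr1b3 (0.949) and Ipo13 (0.938). Sqstm1 was most like Tnfrsf1b (0.997), Psmd11 (0.995) and Acod1 (0.995). Mafg was most like Abcc1 (0.971), Srxn1 (0.970) and Trrap (0.970), Mafk like Colec12 (0.952), Tgoln1 (0.951) and Dstn (0.943), and Maff like Ikbke, Plk2 and Gm7993 (0.994 each). Ranked by Spearman correlation instead, 2 of these 24 choices remained, so the names depend on the measure.

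Further genes of the pathway were taken from lists written from general knowledge with earlier results of these data known, so the lists are not independent of the data. Their counts stand beside the shares of all genes called higher and lower, and differences from those shares were not tested. Of 33 genes with known antioxidant response elements, 30 passed the filter, and with TBHQ against control 24 were called higher and 1 lower (14.2% and 14.8% of all genes), with a median log2 fold change of 0.71. Nqo1 was called higher there from 0.104 ± 0.0773 FPKM in control to 1.05 ± 0.232 with TBHQ, on counts of 1 to 45 over all 18 libraries, too few in control for a firm fold. The next highest called were Hmox1 at 2.09 and Gclm at 1.82, and Adh7 at -0.67 was the gene called lower. Against control the counts were 20 higher and 3 lower with LPS (24.0% and 24.1% of all genes), 17 and 5 with PIC (28.6% and 30.1%, and 14 and 9 by total library size), 28 and 0 in LPS+TBHQ cells (21.2% and 22.5%), and 28 and 0 in PIC+TBHQ cells (26.4% and 26.0%, and 27 and 1 by total library size). TBHQ gave 27 higher and 1 lower within LPS (median 0.67, 11.7% and 12.2% of all genes) and the same numbers within PIC (median 0.61, 15.8% and 15.5%), and Hmox1 was the gene called lower in both, at -0.30 and -0.16. Most of the genes tested from this list were thus called higher with TBHQ, both against control, where the Nfe2l2 transcript was called lower, and within the stimuli, where it was not called under TMM and was called higher by total library size. Under TMM, all medians over the genes tested lay between -0.015 and 0.009, and by total library size between -0.232 and 0.078.

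Genes that Bach1 is known to repress number 11 on the list, Mafg among them, and 8 of them, Nqo1 and Hmox1 included, are also on the list of element-bearing genes. With TBHQ against control 10 were called higher and 0 lower (14.2% and 14.8% of all genes), although the Bach1 transcript was itself higher, and the median log2 fold change was 1.13. The list was also mostly higher with a stimulus alone, where Bach1 was not called under TMM, at 10 higher and 0 lower with LPS (median 0.55, 24.0% and 24.1% of all genes) and 9 and 0 with PIC (median 0.57, 28.6% and 30.1%, and 8 and 1 by total library size). Within LPS, TBHQ gave 9 higher and 1 lower (11.7% and 12.2%), and within PIC 10 higher and 1 lower (15.8% and 15.5%). Relatives of the CNC and Bach factors (Nfe2, Nfe2l3 and Bach2) had at most 11 counts in any library and none was tested, so Nfe2l2, Nfe2l1 and Bach1 were the family members that passed the filter.

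Nrf1 is made and activated through other proteins, and 7 genes of that processing were tested. With TBHQ against control 1 was called higher and 2 lower (14.2% and 14.8% of all genes), and with LPS 3 and 1 (24.0% and 24.1%). With PIC against control 4 were called higher and 3 lower (28.6% and 30.1%), from Ogt at 0.51, Ngly1 at 0.48 and Syvn1 at 0.32 to Hcfc1 at -0.10, Sel1l at -0.22 and Ddi2 at -0.47, and by total library size the counts were 2 and 3. Of 31 proteasome subunit genes, the best known targets of Nrf1, 20 were called higher and 1 lower with LPS against control (24.0% and 24.1% of all genes) and 27 and 0 with PIC (28.6% and 30.1%), against 12 and 4 and 11 and 5 by total library size, where the median with PIC fell from 0.21 to less than 0.01 in size. Psmd11 led with both stimuli, at 0.71 and 0.87. With TBHQ alone, where Nfe2l1 was called lower, 6 were higher and 9 lower (14.2% and 14.8%). In LPS+TBHQ and PIC+TBHQ against control, where Nfe2l1 was called higher, the list had 18 higher and 3 lower (21.2% and 22.5%) and 23 and 1 (26.4% and 26.0%). By total library size those splits were 12 and 6 and 13 and 7, and the medians went from 0.11 and 0.19 to 0.04 and 0.04. Under TMM the list and Nfe2l1 went opposite ways in PIC against LPS, with 14 higher and 0 lower (14.9% and 12.8%), where Nfe2l1 was called lower. They also did so in PIC+TBHQ against PIC, with 1 higher and 11 lower (15.8% and 15.5%), where Nfe2l1 was called higher, a call that several alternatives ended. By total library size this opposition was absent. The list then had 2 higher and 3 lower in PIC against LPS, with Nfe2l1 at -0.25, and 8 and 6 in PIC+TBHQ against PIC, with Nfe2l1 at 0.16.

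Of 14 further regulators of Keap1 and Nrf2, 7 were called higher and 1 lower with LPS against control, and 8 and 2 with PIC, which total library size turned to 3 and 2 with LPS and 2 and 6 with PIC. Cdkn1a was the highest called in both, at 1.38 and 1.78, and Palb2 the lowest, at -0.62 and -1.14. With TBHQ against control 2 were called higher and 1 lower. The shares of all genes called higher and lower were 24.0% and 24.1% with LPS, 28.6% and 30.1% with PIC and 14.2% and 14.8% with TBHQ. Under TMM a larger share of the list than of all genes was called higher with each stimulus, and a smaller share lower. The split with PIC turned by total library size, so these counts do not set the list clearly apart from genes at large. Within LPS, TBHQ gave 1 higher and 3 lower (11.7% and 12.2% of all genes, and 2 and 2 by total library size). Within PIC it gave 1 higher and 6 lower (15.8% and 15.5%, and 3 and 3 by total library size). Cdkn1a was the lowest called in both, at -0.95 and -1.05. Among 12 genes of selective autophagy beside Sqstm1, 7 were called higher and 1 lower with PIC against control (28.6% and 30.1% of all genes, and 4 and 2 by total library size). Tbk1 at 0.65, Nbr1 at 0.55 and Tollip at 0.41 were highest, and Ncoa4 at -0.46 was the gene called lower. Under TMM that list thus leaned higher than genes at large, a difference that was not tested. With TBHQ alone 2 were called higher and 7 lower, beside 14.2% and 14.8% of all genes, so Sqstm1, at 0.40, went the other way from most of that list.

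Promoters were read from a RefSeq table on build GRCm38.p6 that gives 250 bases before and 50 after each start, in which all 8 genes were found, Nfe2l1 with 5 promoters and Maff with 3. A core of the antioxidant response element, TGACNNNGC, and the AP-1 site TGACTCA were searched on both strands, and a sequence can match both because they share their opening letters. Of all 32851 promoters 12.4% held the core, 5.20% the AP-1 site and 0.947% both. These shares are per promoter, while Nfe2l1 and Maff have several, so the number of genes with a match cannot be set against them directly. The core was in a promoter of Nfe2l2 (bases -240 to -232 from the start, same strand as the gene), Maff (-112 to -104, same strand, in 1 of its 3 promoters), Mafg (-222 to -214, opposite strand) and Mafk (-13 to -5, opposite strand). No match to the core lay in these windows of Nfe2l1, Keap1, Bach1 or Sqstm1, and no match to the AP-1 site in those of any member. A match is a description of letters and not a measured binding site.

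The matching windows are printed 5′ to 3′ along the gene with the matched letters in capitals, since they show where all 3 small Maf genes and Nfe2l2 carry the core, also where the match reads on the other strand. They lie at chr2:75704614-75704913 (minus strand) for Nfe2l2, chr15:79346371-79346670 (plus) for Maff, chr11:120633498-120633797 (minus) for Mafg and chr5:139791286-139791585 (plus) for Mafk, and these GRCm38 positions do not match those of the authors' table, whose starts differ from that build for all 8 genes.

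Nfe2l2: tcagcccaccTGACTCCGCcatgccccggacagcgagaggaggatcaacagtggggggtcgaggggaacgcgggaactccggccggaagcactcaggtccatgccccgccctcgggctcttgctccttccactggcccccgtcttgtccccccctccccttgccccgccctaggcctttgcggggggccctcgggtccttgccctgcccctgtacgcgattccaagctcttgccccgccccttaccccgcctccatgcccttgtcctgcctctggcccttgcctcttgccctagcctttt
Maff: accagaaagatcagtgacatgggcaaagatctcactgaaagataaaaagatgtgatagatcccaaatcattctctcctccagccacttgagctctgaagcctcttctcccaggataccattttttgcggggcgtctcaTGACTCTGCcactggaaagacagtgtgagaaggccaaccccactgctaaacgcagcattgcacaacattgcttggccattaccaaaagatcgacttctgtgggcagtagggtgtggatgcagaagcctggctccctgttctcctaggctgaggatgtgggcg
Mafg: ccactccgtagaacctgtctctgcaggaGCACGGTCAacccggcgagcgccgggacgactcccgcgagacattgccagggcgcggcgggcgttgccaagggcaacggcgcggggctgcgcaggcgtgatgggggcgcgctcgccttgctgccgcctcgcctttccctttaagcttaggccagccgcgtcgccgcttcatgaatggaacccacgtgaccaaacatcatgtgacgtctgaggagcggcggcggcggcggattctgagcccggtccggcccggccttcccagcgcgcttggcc
Mafk: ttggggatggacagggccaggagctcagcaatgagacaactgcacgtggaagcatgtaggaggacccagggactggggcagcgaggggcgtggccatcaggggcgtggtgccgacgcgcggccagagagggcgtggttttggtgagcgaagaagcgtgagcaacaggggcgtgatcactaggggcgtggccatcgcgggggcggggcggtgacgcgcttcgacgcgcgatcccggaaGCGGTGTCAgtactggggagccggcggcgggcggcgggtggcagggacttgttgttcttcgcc

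Some members share sequence or position with a neighbour, and although the study's methods describe libraries that keep the strand, whether fragments were counted by strand is not stated, so those counts could include the neighbour's. Keap1 overlaps the antisense gene Gm16754 over 3404 bases, with a mean of 60.6 counts for Gm16754 beside 1084 for Keap1, and 7.78% of the 50-base words of Keap1 transcripts also occur in it. Sqstm1 overlaps the antisense gene Mrnip over 750 bases, with 24.9 counts beside 64350, and shares 15.5% of its words. Mafg overlaps Sirt7 on the same strand over 124 bases, with 805 counts beside 3616, and shares 1.34%, while Mafk overlaps Tmem184a, which had a mean of 0.278 counts, over 169 bases and shares 3.12%. Maff overlaps the antisense gene ENSMUSG00000121075 over 889 bases, with 4.06 counts beside 289, and Nfe2l2 overlaps a U6 gene on its own strand over 99 bases, with 2.61 counts beside 2089. Nfe2l2, Nfe2l1, Bach1 and Maff shared no such word with another gene.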

How the data were processed

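RNA of 18 RAW 264.7 libraries was measured as counts per gene. The authors deposited raw counts and FPKM, the submitters' processing notes name HISAT2 2.0.5, StringTie 1.3.3b and featureCounts 1.5.0-p3, and the labels name both GRCm38 and mm39. The deposited FPKM equals the FPKM recomputed from counts and gene lengths times 1 constant per library (0.943 to 1.12). Depth is given in the report, and all 8 members had at least 64 counts in each library.

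Counts were analysed in R 4.3.3 with edgeR 4.0.16 (filterByExpr, TMM, quasi-likelihood F test, 1 coefficient per group, Benjamini-Hochberg adjustment over 13691 genes), which was tested on simulated data, for 10 comparisons. Intervals are 95% intervals from the F statistic, and standard errors come from the spread of log2 scaled counts (prior count 2) among replicates. Alternatives were DESeq2 1.42.0, RLE scaling, scaling by total library size, no filter on low counts, a minimum mean of 50 counts, a fit of the compared groups alone, limma 3.58.1 on log2(FPKM + 1) and on log2(FPKM + 0.1), a replicate block, an adjusted p below 0.01, and each of the 18 libraries left out in turn. Levels, ratios, promoters and figures were computed in Python 3.11.15 with numpy 2.4.6 and pandas 2.3.3, and drawn with matplotlib 3.10.9.

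Genes named are the 8 members, up to 3 genes with the highest and 3 with the lowest log2 fold change among those called from each list in a comparison described, the 3 genes most like each member, and the marker genes of macrophages, other cells and the stimulus. The lists were regulators of Keap1 and Nrf2, CNC and Bach relatives, Nrf1 processing, proteasome subunits, selective autophagy, genes with antioxidant response elements, genes repressed by Bach1, and those markers. Members and lists were chosen with earlier results of these data known. Protein sequences were not available and are not shown. Some results are withheld and are not reported here.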

Additional observations from a re-analysis of the deposited data

Results flagged for a closer look

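Keap1 had a change with TBHQ that differed between the stimuli by edgeR's test of the difference: the log2 change within PIC minus that within LPS was 0.31 (SE 0.0829, 95% interval 0.16 to 0.47, Benjamini-Hochberg adjusted p 0.021). It was singled out because the change was 0.29 within PIC, where all 3 PIC+TBHQ libraries lay above all 3 PIC libraries, and -0.02 within LPS, where the libraries overlapped. Over the alternatives the difference ran from 0.25 to 0.36 and its adjusted p from 0.0056 to 0.11.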

How the results depend on the processing

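Of 1247 recomputed log2 fold changes of members, 1138 kept their direction and side of the threshold, 65 lost a call, 8 gained a call and 36 changed sign, 35 of these called neither before nor after. The cause was not tested. Members called in PIC+TBHQ against LPS+TBHQ went from 4 to 2 with no filter and to 2 at an adjusted p below 0.01, and ran from 2 to 4 with a library left out. Members called for the change with TBHQ in PIC minus that in LPS went from 1 to 2 by total library size, to 0 and 0 by limma on FPKM with a pseudocount of 1 or 0.1, and to 0 below 0.01, and ran from 0 to 1 with a library left out. In the other 8 comparisons the count of both directions together stayed within 1.5 times its value, but the directions moved. By total library size PIC against LPS went from 4 higher and 2 lower to 2 and 4, LPS+TBHQ against LPS from 2 and 2 to 4 and 2, PIC+TBHQ against PIC from 4 and 2 to 5 and 1, PIC against control from 5 and 2 to 4 and 3, and PIC+TBHQ against LPS+TBHQ from 4 and 0 to 2 and 1.

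Signs changed by total library size to -0.04 for Bach1 and -0.05 for Mafk with LPS against control, -0.22 for Bach1 with PIC against control (adjusted p 0.0014, in a range of 0.0014 to 1), 0.009 for Keap1 with TBHQ within LPS, -0.08 for Nfe2l1 and -0.05 for Mafg in PIC+TBHQ against LPS+TBHQ, and 0.02 for Nfe2l2 and 0.04 for Maff in the difference between the changes with TBHQ. For Mafg in PIC against LPS the sign changed to 0.006 by DESeq2, 0.007 by RLE scaling and 0.005 and 0.005 by limma on FPKM. A minimum mean of 50 counts gave -0.003 for Mafk with TBHQ within PIC and -0.003 for Nfe2l1 in PIC+TBHQ against LPS+TBHQ, where a fit of the compared groups alone gave -0.003 and no filter -0.007. The replicate block gave -0.0006 for Bach1 in PIC against control.

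With a library left out, signs changed within ranges of -0.08 to 0.14 for Maff with TBHQ against control, -0.02 to 0.04 for Bach1 with PIC against control, -0.05 to 0.03 for Keap1 with TBHQ within LPS, -0.04 to 0.05 for Mafk with TBHQ within PIC, -0.05 to 0.05 for Mafg in PIC against LPS and -0.01 to 0.02 for Nfe2l1 in PIC+TBHQ against LPS+TBHQ. In the difference between the changes with TBHQ the ranges were -0.07 to 0.007 for Nfe2l2, -0.08 to 0.08 for Maff and -0.03 to 0.07 for Mafg.

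No pairing of libraries by replicate number was seen across groups. Over 27 pairs with the same number the correlations of residuals ran from -0.044 to 0.065, 0 of them above 0.1. Of 18 libraries, 6 correlated best with a library of their own number. Low correlations cannot exclude that libraries of the same number were handled together. Maff rested on 64 to 90 counts in unstimulated libraries, groups of 3 libraries of 1 cell line limit the precision of every value, and RNA levels say nothing of protein.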
